A study of Mus musculus with 6 samples.

Results

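MHC class II genes encode the surface molecules, and their assembly partners, that present peptides from engulfed proteins to CD4 T cells. The 7 genes chosen were H2-Aa, H2-Ab1, H2-Eb1, H2-DMa, H2-DMb1, Cd74 and Ciita, taken by name from the deposited gene table. Of these, 6 were among the 14956 genes in the table. Ciita (chromosome 16, 10480059 to 10528418) had no row and was not analysed here. The genes were proposed with their values in this comparison known, so their levels are given as a description, with no test.

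RNA was sequenced from 6 mouse hearts after poly(A) selection. The WT hearts (n = 3) came from Otub1 +/+ mice and the Het hearts (n = 3) from Otub1 +/- mice, in which 1 copy of the deubiquitinase gene Otub1 is disrupted. Both groups had been given doxorubicin, a chemotherapy drug that injures the heart, in 6 injections over 2 weeks, so no untreated heart was available for reference. The labels give no strain, age or sex. The comparison asked how treated hearts differed by Otub1 genotype. Values are FPKM, which correct for transcript length, so that levels can be set side by side between genes. Where 3 values are given for a group, they are those of replicates 1, 2 and 3 in that order. In bulk tissue, fewer cells of a type and less RNA per cell cannot be told apart.

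A class II molecule is a pair of chains, alpha and beta. In the mouse, H2-Aa and H2-Ab1 encode the A pair, and H2-Eb1 encodes the beta chain of the E pair, whose alpha chain comes from H2-Ea. Cd74, the invariant chain, holds new pairs together and keeps their groove closed until they reach the endosome. There the H2-DM pair, encoded by H2-DMa and H2-DMb1, exchanges the last fragment of Cd74 for a peptide. Ciita is the coactivator that switches the set on, through factors bound at a shared promoter module of X and Y boxes. In tissues these genes are expressed mainly by dendritic cells, macrophages and B cells, and in lung also by alveolar epithelial cells. Interferon-gamma induces them in many other cell types.

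Promoters of the H2 genes are shown because the X and Y box module is what class II genes are known to share. Of the 7 genes, 4 had a RefSeq promoter window in GRCm38.p6, reaching from 250 bases before to 50 bases after a start site. These were H2-Aa, H2-Eb1, H2-DMb1 and H2-DMa. Windows were searched on both strands for an X box of 13 bases, with C first, AAC from base 6, ATG from base 11 and any base elsewhere, for the octamer TGACGTCA that can form the X2 part of the module, and for a Y box spelled TGATTGG. The X spelling was written with these promoters in view. The 70 bases around the Y box follow in the direction of transcription, with matched motifs in capitals. The windows are chr17:34287854-34287923 (minus strand) for H2-Aa, chr17:34305756-34305825 for H2-Eb1, chr17:34153078-34153147 for H2-DMb1 and chr17:34145107-34145176 for H2-DMb2, a near copy of H2-DMb1. The last 3 lie on the plus strand.
H2-Aa: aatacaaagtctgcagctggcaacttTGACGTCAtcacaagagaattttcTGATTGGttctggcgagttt
H2-Eb1: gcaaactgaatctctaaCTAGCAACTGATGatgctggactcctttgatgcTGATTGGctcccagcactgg
H2-DMb1: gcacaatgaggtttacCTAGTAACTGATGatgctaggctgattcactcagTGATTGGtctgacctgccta
H2-DMb2: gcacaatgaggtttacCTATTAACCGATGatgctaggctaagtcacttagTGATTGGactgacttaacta

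In H2-Eb1 and H2-DMb1 the first base of the Y box lay 33 and 34 bases after the first base of the X box, with no overlap between the motifs. H2-Aa held the X2 octamer and a Y box but no match to the X spelling, and the 2 windows of H2-DMa held none of the 3 motifs. Of 32851 promoter windows of the same length, 2.06% held the X spelling, 1.79% the X2 octamer and 7.82% the Y box. An X box followed on the sense strand by a Y box 25 to 45 bases on, counted from first base to first base, was found in 6 windows (0.0183%). Of these, 5 belonged to class II genes, namely H2-Eb1, H2-DMb1, H2-DMb2, H2-Eb2 and H2-Ob, and the last to BC051142. The X spelling was written with class II promoters in view, so nothing is read from this count. A match is a description of these letters and not a measured binding site.

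The hearts differed in several ways beside the class II genes. Otub1 had 14.2 to 15.4 FPKM across WT hearts and 4.83 to 6.65 FPKM across Het hearts. Het 1 stood apart in its overall profile, with a highest correlation with another library of 0.887 across tested genes, against 0.970 to 0.987 for the others. Its median tested gene lay at a log2 difference of −0.45 from the WT mean, against −0.03 in Het 2 and −0.04 in Het 3. Mitochondrial transcripts made up 65.0% of its summed FPKM, and 51.5% to 56.1% elsewhere. Het 3 held transcripts typical of lung epithelium. Without Hopx, which heart also expresses, the 19 lung markers summed to 914 FPKM in Het 3 and to 3.73 to 4.19 FPKM in the other 5 hearts. Of these markers, the club cell secretoglobin Scgb1a1 reached 476 FPKM and the surfactant gene Sftpc 261 FPKM in Het 3. None of the 19 was at 0 in Het 3, while 10 to 14 were at 0 in each of the others. Markers of liver and blood also differed between hearts. The 10 hepatocyte markers summed to 133 to 191 FPKM in WT and to 2.57, 47.6 and 2.52 FPKM in Het. All 10 were lower at an unadjusted p under 0.05 by limma, where 3.08% of all tested genes were. Of them, Serpina1a, Serpina1b and Apoh had Het means of 0.927, 0.650 and 0.418 FPKM. These passed the filter of a mean of 1 FPKM only through WT, which sets their direction. The 5 erythroid markers summed to 1006 to 1395 FPKM in WT and to 5705, 2403 and 680.1 FPKM in Het. Heart muscle markers were abundant in all hearts, with Myh6, Tnnt2 and 6 others summing to 7779 FPKM in Het 1 and to 14545 to 18582 FPKM elsewhere. On the log2(FPKM + 1) scale the median of the 11096 tested genes was −0.18 in Het relative to WT, and differences are also given relative to that median.

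The class II genes were highest in Het 3. All 6 listed genes had their highest level in Het 3, at 2.52 to 3.73 times the WT mean. Het 3 is also the heart with the lung transcripts, whose part in these levels was not tested. For H2-Ab1, H2-Eb1 and Cd74, Het 2 lay inside the WT range and Het 1 below it. Het 1 was the lowest heart for 4 of the 6, and it was the lowest for 59% of all listed genes. Only H2-DMb1 had every Het heart above every WT heart, 1 of 6 genes, where 2.37% of all listed genes did so. That separation depends on the read split with its near copy H2-DMb2, described below. For comparison, Het 3 was the highest library for 16.2% of all listed genes, and 3.01% had at least 2 times the WT mean there. Since the genes were chosen on this contrast, nothing is read from these counts.

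**Figure D1:**
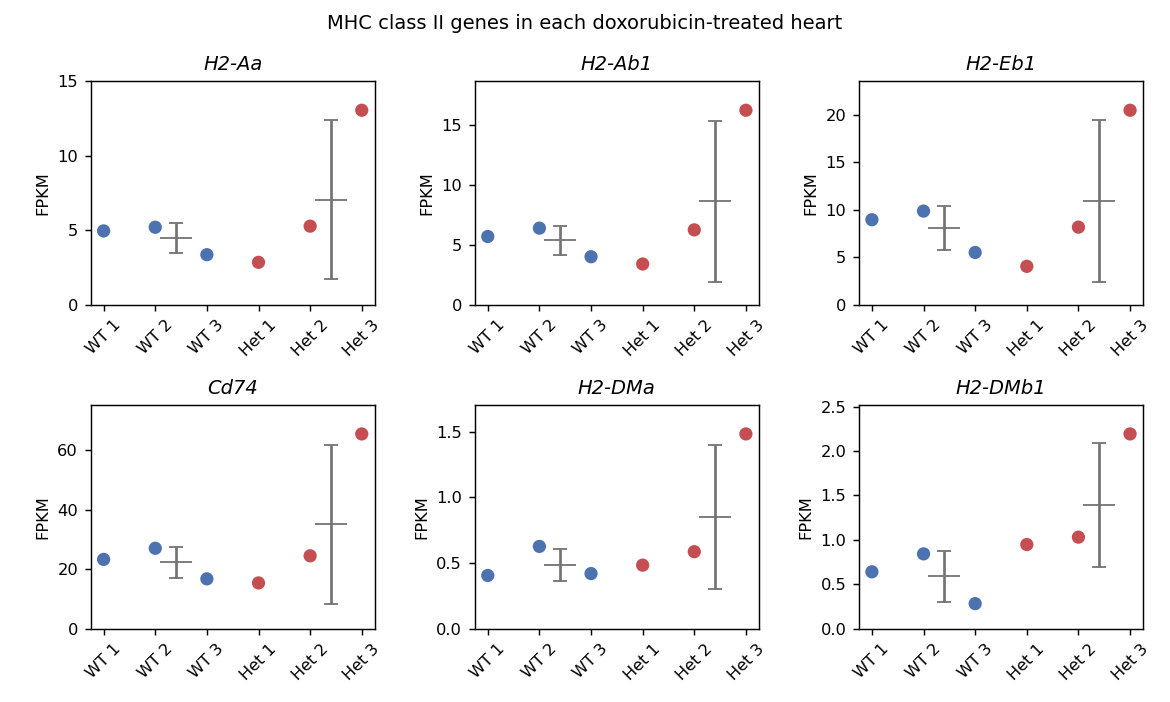
FPKM (y axis, from 0) of the 6 listed class II genes in each heart, with WT in blue and Het in red; grey bars give the group mean and SD (n = 3). In every panel Het 3 is the highest point, from 1.48 FPKM for H2-DMa to 65.5 FPKM for Cd74.

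The alpha and beta chains of the A pair varied in parallel. H2-Ab1 (ENSMUSG00000073421, chromosome 17, 34257689 to 34269419, plus strand, GRCm38), the beta chain, stood at 5.71, 6.41 and 4.02 FPKM in WT 1, 2 and 3. In Het 1, 2 and 3 it stood at 3.42, 6.27 and 16.3 FPKM. Het 1 was thus the lowest heart and Het 3 the highest, and Het 2 lay inside the WT range. Group means were 5.38 ± 1.23 FPKM for WT and 8.65 ± 6.74 FPKM for Het (SD, n = 3 each), a log2 difference of 0.38 (SE 0.49), or 0.56 relative to all genes. Without Het 3 the log2 difference was −0.15. H2-Aa (ENSMUSG00000036594, chromosome 17, 34282744 to 34287823, minus strand), the alpha chain, had 4.97, 5.21 and 3.37 FPKM across WT hearts and 2.86, 5.29 and 13.1 FPKM across Het hearts. Het 3 again was highest and Het 1 lowest, with overlapping groups. Its means were 4.52 ± 0.999 and 7.07 ± 5.33 FPKM (SD, n = 3 each), a log2 difference of 0.36 (SE 0.46), and −0.15 without Het 3.

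The E beta chain had the same extremes. H2-Eb1 (ENSMUSG00000060586, chromosome 17, 34305867 to 34316674, plus strand) had 8.96, 9.86 and 5.51 FPKM across WT hearts and 4.06, 8.17 and 20.5 FPKM across Het hearts. Het 1 was below every WT heart, Het 2 was inside their range and Het 3 was above it. The means were 8.11 ± 2.30 and 10.9 ± 8.54 FPKM (SD, n = 3 each), a log2 difference of 0.17 (SE 0.53), or −0.39 without Het 3.

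Cd74 was the most abundant of the set in every heart. Cd74 (ENSMUSG00000024610, chromosome 18, 60803848 to 60812652, plus strand) had 23.3, 27.0 and 16.7 FPKM across WT hearts and 15.4, 24.5 and 65.5 FPKM across Het hearts. As for the chains, Het 1 was lowest and Het 3 highest, and Het 2 lay inside the WT range, as it did for H2-Ab1 and H2-Eb1. The means were 22.3 ± 5.21 and 35.1 ± 26.7 FPKM (SD, n = 3 each). The log2 difference was 0.40 (SE 0.52), and −0.17 without Het 3. Across these 4 genes the log2 differences were 0.66 to 0.84 without Het 1, the heart with the lowest values.

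The peptide exchange pair stood lower and differed in order. H2-DMb1 (ENSMUSG00000079547, chromosome 17, 34153072 to 34160230, plus strand), the beta chain, had 0.640, 0.842 and 0.281 FPKM across WT hearts and 0.947, 1.03 and 2.19 FPKM across Het hearts. Its groups did not overlap, with Het 1 and Het 2 just above the highest WT heart. This separation depends on the read split with H2-DMb2, described below. The means were 0.588 ± 0.284 and 1.39 ± 0.697 FPKM (SD, n = 3 each), a log2 difference of 0.57 (SE 0.24), and 0.34 without Het 3. H2-DMa (ENSMUSG00000037649, chromosome 17, 34119541 to 34139101, plus strand), the alpha chain, had 0.405, 0.626 and 0.419 FPKM across WT hearts and 0.483, 0.586 and 1.48 FPKM across Het hearts. Its groups overlapped, and Het 1 and Het 2 lay within the WT range. The means were 0.483 ± 0.124 and 0.851 ± 0.550 FPKM (SD, n = 3 each), a log2 difference of 0.28 (SE 0.22), and 0.05 without Het 3. Both means over the 6 hearts, 0.989 FPKM for H2-DMb1 and 0.667 FPKM for H2-DMa, fell under the 1 FPKM required of tested genes, and the next member, H2-Aa, had 5.79 FPKM. The scale understates differences at such levels. With a pseudocount of 0.1 the log2 difference of H2-DMb1 was 1.12.

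H2-DMb1 may share reads with H2-DMb2, its near copy. Their longest protein-coding transcripts in GENCODE M21 were identical at 94.8% of 1211 aligned bases, so the split between the pair is uncertain. H2-DMb2 had 0, 0.349 and 0.0699 FPKM across WT hearts and 0, 0.179 and 0.700 FPKM across Het hearts, so Het 3 was highest there too. If the levels of the 2 copies are added in each heart, Het 1 lies below WT 2 and the groups overlap. The lack of overlap of H2-DMb1 alone thus rests on an uncertain split. H2-Eb1 and H2-Ab1 were less alike, at 74.5% of 772 aligned bases. H2-Eb2, H2-Oa and H2-Ob, further class II genes, were not among the listed genes.

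Read together, the 6 listed genes had a median log2 difference of 0.37, against −0.18 for all tested genes. Relative to all genes the median was 0.55 with all hearts and 0.10 without Het 3. By heart, the median difference from the WT mean relative to all genes was 0.07, 0.25 and −0.33 in WT 1, 2 and 3. It was −0.04, 0.21 and 1.36 in Het 1, 2 and 3. Only Het 3 therefore lay outside the WT range. By the q-value of the authors' deposited table, none of the 6 genes passed 0.05, where 1.02% of all listed genes did. The authors' deposited table marks 1 of the 6, H2-DMb1, as significant, along with 3.02% of all listed genes, a mark that goes with an unadjusted p under 0.05 and a log2 fold change of at least 1. Nothing is read from these counts either, since the genes were chosen on this contrast.

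Ratios within a heart do not depend on how libraries are scaled, and of those between class II genes the A pair's varied least. The ratio of H2-Aa to H2-Ab1 was 0.870, 0.813 and 0.838 in WT and 0.836, 0.843 and 0.804 in Het. Its highest value was 1.08 times its lowest, while H2-Ab1 itself spanned 3.42 to 16.3 FPKM. The ratio of Cd74 to H2-Ab1 ran from 3.91 in Het 2 to 4.50 in Het 1, with 4.03 in Het 3, so Cd74 varied in parallel with the chain it binds. The order Cd74, H2-Eb1, H2-Ab1, H2-Aa, H2-DMb1, H2-DMa held in 5 of 6 hearts. In WT 3 the last 2 changed places. Over the 4 genes other than the DM pair, pairwise correlations across the 6 hearts were 0.977 to 0.999, and 0.972 to 0.996 over the 5 hearts without Het 3. These 4 genes share libraries, and the values describe parallel levels and carry no test.

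Other ratios were less even. H2-Eb1 to H2-Ab1 was 1.57, 1.54 and 1.37 in WT and 1.19, 1.304 and 1.26 in Het, so every Het heart lay below every WT heart. The means were 1.49 ± 0.107 and 1.25 ± 0.0591 (SD, n = 3 each). H2-DMb1 to H2-Ab1 was 0.112, 0.131 and 0.0700 in WT and 0.277, 0.164 and 0.135 in Het, so every Het heart lay above every WT heart, with Het 1 the highest. If H2-DMb2 is added to H2-DMb1, Het 3 lies below WT 2 in that ratio and the groups overlap. H2-DMa to H2-Ab1 overlapped between the groups, from 0.0709 in WT 1 to 0.141 in Het 1. These ratios come from the same contrast as the choice of genes and were not tested. How often ratios of other genes separate the groups was not obtained, so nothing is read from the lack of overlap.

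**Figure D2:**
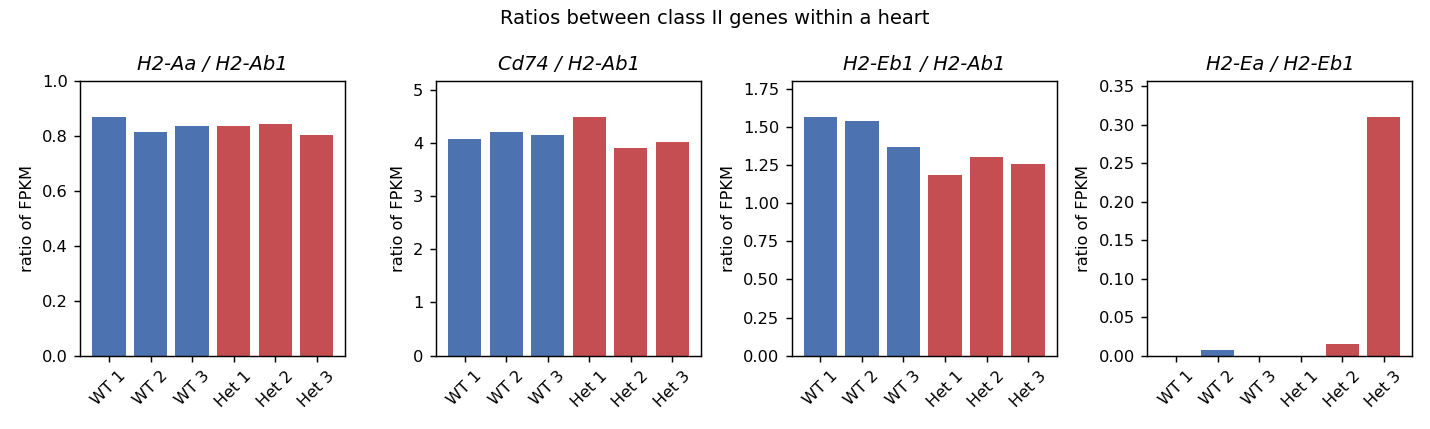
Ratio of the FPKM of 2 class II genes within each heart (y axis, from 0), with WT in blue and Het in red and 1 bar per heart. H2-Aa to H2-Ab1 stays between 0.804 and 0.870 in all hearts, H2-Eb1 to H2-Ab1 is lower in each Het heart than in each WT heart, and H2-Ea to H2-Eb1 reaches 0.310 only in Het 3. The ratios are a description with no test.

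The alpha chain of the E pair was found in quantity in a single heart. H2-Ea (ENSMUSG00000036322, chromosome 17, 34341959 to 34344645, minus strand) is annotated in GENCODE M21 as a polymorphic pseudogene under the name H2-Ea-ps. Mouse strains of the H2 b haplotype, such as C57BL/6, carry a deletion that silences it, while other haplotypes transcribe it. H2-Ea stood at 0, 0.0676 and 0 FPKM in WT 1, 2 and 3 and at 0, 0.126 and 6.35 FPKM in Het 1, 2 and 3. In Het 3 it made up 0.310 of the H2-Eb1 level, against at most 0.0154 in any other heart. H2-Eb1 itself was present in all 6 hearts at 4.06 FPKM or more. H2-Ea reached the 1 FPKM mean through Het 3 alone. For that reason no test of it is given. The log2 difference was 0.98 with all hearts and 0.05 without Het 3. The labels give no strain for any mouse, and the part of strain in this level was not tested.

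Some markers of cells that express class II were also highest in Het 3. Of 10 B cell markers, 3 were listed, and their sums were 4.16, 1.87 and 11.1 FPKM for Het 1, 2 and 3, with 1.75 to 3.31 FPKM for WT. Igkc, the kappa light chain of antibodies, reached 5.06 FPKM in Het 3, with 0 to 1.37 FPKM elsewhere. Ighm, the heavy chain of IgM, reached 5.43 FPKM in Het 3, with 1.40 to 2.55 FPKM elsewhere. Ms4a1 and Cd79a, which define B cells, were not among the listed genes. The 2 listed markers of alveolar macrophages, Chil3 and Ear2, summed to 5.02 FPKM in Het 3 and to 0.0533 to 0.728 FPKM elsewhere. Of 11 dendritic cell markers 3 were listed, with sums of 3.13 to 5.05 FPKM in WT and of 5.75, 3.56 and 4.52 FPKM in Het 1, 2 and 3. Zbtb46, the most abundant of the 3, was highest in Het 1, at 3.82 FPKM. Irf8 and Clec9a were highest in Het 3, at 0.860 and 1.71 FPKM. Elsewhere they ran from 0.485 to 0.683 FPKM and from 0.746 to 1.41 FPKM. Itgax, Flt3 and Xcr1, also of these 11 markers, were not among the listed genes. The part of these cells in the class II levels was not tested.

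Macrophage markers were also highest in Het 3 by their sum, but not by their median. Of 16 markers, 15 were listed. These 15 summed to 150.0 to 169 FPKM in WT and to 167, 182 and 278 FPKM in Het 1, 2 and 3. Lyz2, the lysozyme of myeloid and alveolar type II cells, made up 168 FPKM of the Het 3 sum, with 44.6 to 58.9 FPKM elsewhere. The high sum in Het 3 thus rests on Lyz2. The median of the 12 tested markers relative to all genes was 0.36, 0.25 and 0.13 in Het 1, 2 and 3. Csf1r, a growth factor receptor of macrophages, had 3.73 to 4.13 FPKM across WT hearts and 3.996, 5.06 and 7.12 FPKM across Het hearts. Adgre1, a surface receptor of macrophages, had 1.38 to 1.44 FPKM across WT hearts and 0.901, 2.54 and 2.90 FPKM across Het hearts. The complement gene C1qa was higher in Het 1 and Het 2, at 39.0 and 38.8 FPKM, than in Het 3 and WT, at 26.4 and 23.3 to 29.3 FPKM. The ratio of Cd74 to C1qa ran from 0.718 to 0.924 over the WT hearts, and was 0.394, 0.631 and 2.48 in Het 1, 2 and 3. None of the 12 tested macrophage markers passed in limma's test, where 0.018% of all tested genes did. At an unadjusted p under 0.05 by limma 0 were higher or lower, beside 0.802% and 3.08% of all tested genes. With shares that small, nothing is read from these counts.

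**Figure D3:**
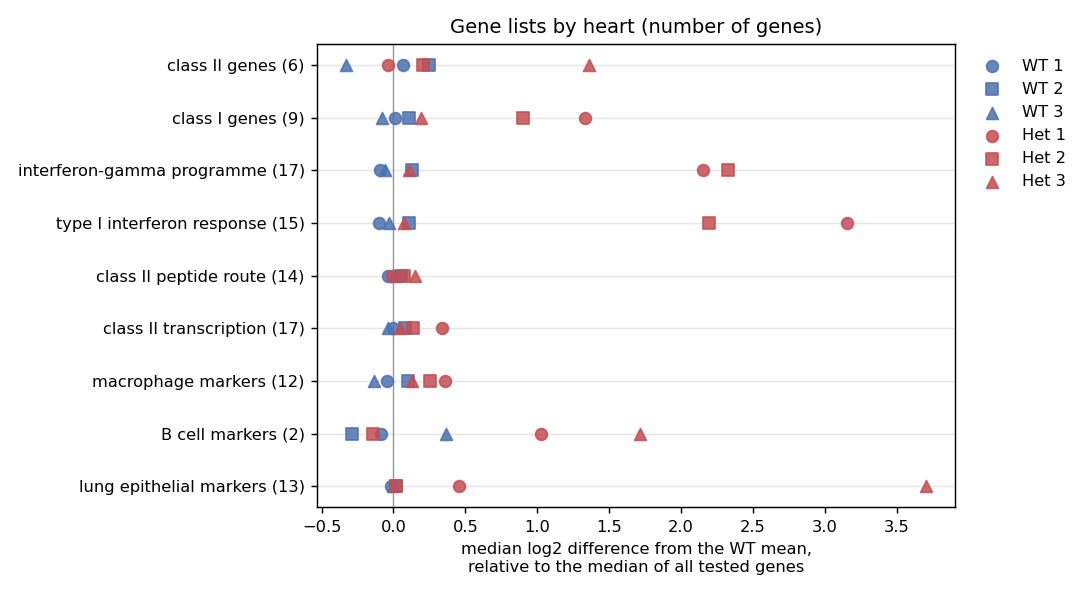
Median log2 difference between a heart and the WT mean for each gene list, set against that of all tested genes (x axis), with 1 symbol per heart; the number of genes is given beside each list name. The class II genes are set apart in Het 3 alone (1.36), while the class I genes and both interferon lists are set apart in Het 1 and Het 2.

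Genes that work with class II were examined as 6 lists, namely other class II genes, transcription, peptide route, costimulation, the interferon-gamma programme and class I. Counting alternative names of a gene apart, of their 77 names 67 were listed and 60 tested, and 0 passed at an adjusted p under 0.05 in limma's test over all genes, where 0.018% of all tested genes passed. At an unadjusted p under 0.05, 14 were higher and 1 was lower in Het, where 0.802% and 3.08% of all tested genes were. Of the 60, 5 had a WT mean under 1 FPKM and entered the test only through Het, which sets their direction. Among the other 55, 10 were higher and 1 was lower at an unadjusted p under 0.05. With library weights 0 of the 60 passed, while 14 of the 67 listed genes passed, all 14 higher, by the q-values of the authors' deposited table, where 1.02% of all listed genes did. Without Het 3, 5 passed as higher, namely Gbp3, Gbp4, Tgtp1, Nlrc5 and Tap1, all of the interferon-gamma programme, where 0.342% of all tested genes passed in either direction. Of these 5, Nlrc5 had entered the test only through Het.

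The transcription list holds the factors at the X and Y boxes and the interferon-gamma signalling route to Ciita. Its 17 tested genes had a median log2 difference of −0.04, or 0.14 relative to all genes, and 0 had an unadjusted p under 0.05. Rfx5, Rfxap and Rfxank form the factor that binds the X box. Rfx5 had 1.13 to 1.45 FPKM across WT hearts and 1.04, 1.76 and 1.28 FPKM across Het hearts, a log2 difference of 0.03 (SE 0.15, adjusted p 0.935 in limma's test). Nfyc, a subunit of the Y box factor NF-Y, had a log2 difference of −0.30 (SE 0.19), and Usf1, which binds a Ciita promoter, had 0.25 (SE 0.16). Both had an adjusted p by limma of 0.753. Usf1 had 5.72 to 6.69 FPKM across WT hearts and 7.70, 8.09 and 7.24 FPKM across Het hearts, so its groups did not overlap, as for 1.83% of tested genes in that direction.

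Irf1, which carries the interferon-gamma signal to the Ciita promoter, was highest in Het 2, while the class II genes were highest in Het 3. Irf1 had 4.92 to 6.66 FPKM across WT hearts and 7.69, 9.25 and 5.31 FPKM across Het hearts, a log2 difference of 0.35 (SE 0.23, adjusted p by limma 0.753). In Het 2, H2-Ab1, H2-Eb1, Cd74 and H2-DMa lay within the WT range. There H2-Aa, at 5.29 FPKM against at most 5.21 FPKM in WT, lay above it. So did H2-DMb1, at 1.03 FPKM against at most 0.842 FPKM in WT. In Het 3, where the class II genes were highest, Irf1 lay inside the WT range. The part of Irf1 in the class II levels was not tested. Ifng itself was not among the listed genes.

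The interferon-gamma programme and the class I genes were high in Het 1 and Het 2 and close to WT in Het 3. The 17 tested programme genes had a median relative to all genes of 2.15, 2.33 and 0.11 in Het 1, 2 and 3. At an unadjusted p under 0.05 by limma, 9 were higher and 0 lower, beside 0.802% and 3.08% of all tested genes. Of those 9, Nlrc5, Gbp5, Cxcl9 and Psmb9 had a WT mean under 1 FPKM, so that the filter fixed their direction, which leaves 5 of 13 genes. The summed erythroid markers were likewise above the WT range in Het 1 and Het 2 and below it in Het 3, and their part in these levels was not tested. Gbp4, a guanylate-binding protein, had 1.43 to 2.35 FPKM across WT hearts and 20.5, 17.3 and 2.68 FPKM across Het hearts. Its log2 difference was 2.02 (SE 0.66, adjusted p by limma 0.753, and 0.0225 without Het 3). Psmb9 and Gbp5 had log2 differences of 0.89 (SE 0.25) and 1.37 (SE 0.47). Nlrc5, a relative of Ciita that switches on class I genes, had 0.480 to 0.623 FPKM across WT hearts and 4.65, 4.81 and 0.568 FPKM across Het hearts. The log2 difference came to 1.25 (SE 0.50), and no p is given beside it, since its WT level would not have passed the filter. Het 3 lay inside the WT range of Nlrc5, while the class II genes were highest there. For Gbp4 the adjusted p ran from 0.0225 to 0.937 over the limma alternatives. Of 15 tested genes of the type I interferon response, 10 were higher and 0 lower at an unadjusted p under 0.05, beside 0.802% and 3.08% of all tested genes. Without the 3 that entered only through Het, 7 of 12 were higher. At an adjusted p under 0.05 by limma 0 of the 15 passed with all hearts and 13 without Het 3, of which 10 were among the 12. The shares of all tested genes that passed in either direction were 0.018% and 0.342%. The list's medians relative to all genes were 3.16, 2.196 and 0.08 in Het 1, 2 and 3.

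Class I molecules, which present peptides from inside the cell to CD8 T cells, were measured by 9 genes, all tested. Their medians relative to all genes were 1.33, 0.90 and 0.19 in Het 1, 2 and 3. At an unadjusted p under 0.05 by limma, 4 were higher and 0 lower in Het, beside 0.802% and 3.08% of all tested genes. B2m, the light chain of class I molecules, had 129 to 163 FPKM across WT hearts and 417, 275 and 152 FPKM across Het hearts. Its log2 difference was 0.79 (SE 0.40, adjusted p by limma 0.753). H2-K1, a heavy chain, had 44.4 to 56.0 FPKM across WT hearts and 92.3, 75.9 and 42.9 FPKM across Het hearts, with a log2 difference of 0.41 (SE 0.33, adjusted p 0.753). H2-Q7, H2-T23 and H2-Q6 had the smallest unadjusted p of the list, with log2 differences of 0.73, 1.07 and 0.98 and an adjusted p of 0.753 each. These H2 genes are close copies of each other and may share reads. The ratio of H2-K1 to Cd74 was 1.87 to 2.66 in WT and 6.01, 3.10 and 0.655 in Het 1, 2 and 3. It was thus above the WT range in Het 1 and Het 2 and below it in Het 3.

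The peptide route holds the endosomal proteases and helpers that prepare peptides and trim Cd74. Its 14 tested genes had a median log2 difference of −0.14, or 0.04 relative to all genes. At an unadjusted p under 0.05 by limma, 1 was lower and 0 were higher, beside 3.08% and 0.802% of all tested genes. That gene was Cd63, an endosomal tetraspanin, with a mean of 17.2 ± 0.780 FPKM over WT hearts and 11.4 ± 1.84 FPKM over Het hearts (SD, n = 3 each). The log2 difference came to −0.56 (SE 0.19, adjusted p by limma 0.753). Ctss, the protease that cuts Cd74 in most antigen-presenting cells, had 6.93, 6.85 and 5.53 FPKM across WT hearts and 4.83, 10.9 and 10.3 FPKM across Het hearts. It was thus lowest in Het 1, as the class II chains were, but Het 2 and Het 3 both lay above the WT range. Its log2 difference was 0.31 (SE 0.30, adjusted p 0.753). Ifi30, a reductase that unfolds antigens, had 3.22 to 4.86 FPKM across WT hearts and 6.11, 3.59 and 5.10 FPKM across Het hearts, with a log2 difference of 0.20 (SE 0.22, adjusted p 0.756 in limma's test). Ctsz had a log2 difference of 0.27 (SE 0.22, adjusted p 0.753).

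Het 1 set the low end of this list. Ctsd, a major lysosomal protease, was at 75.4 FPKM in Het 1, with 281 to 323 FPKM elsewhere. Ctsb was at 19.5 FPKM in Het 1, with 55.2 to 59.4 FPKM elsewhere. In Het 3 they stood at 323 and 59.4 FPKM, just above the highest WT heart, while the class II chains were at 2.52 times the WT mean or more. Ctsd and Ctsb were singled out after their values were seen, as were Cd86 and Cd83 below and Lyz2 and Ighm above.

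**Figure D4:**
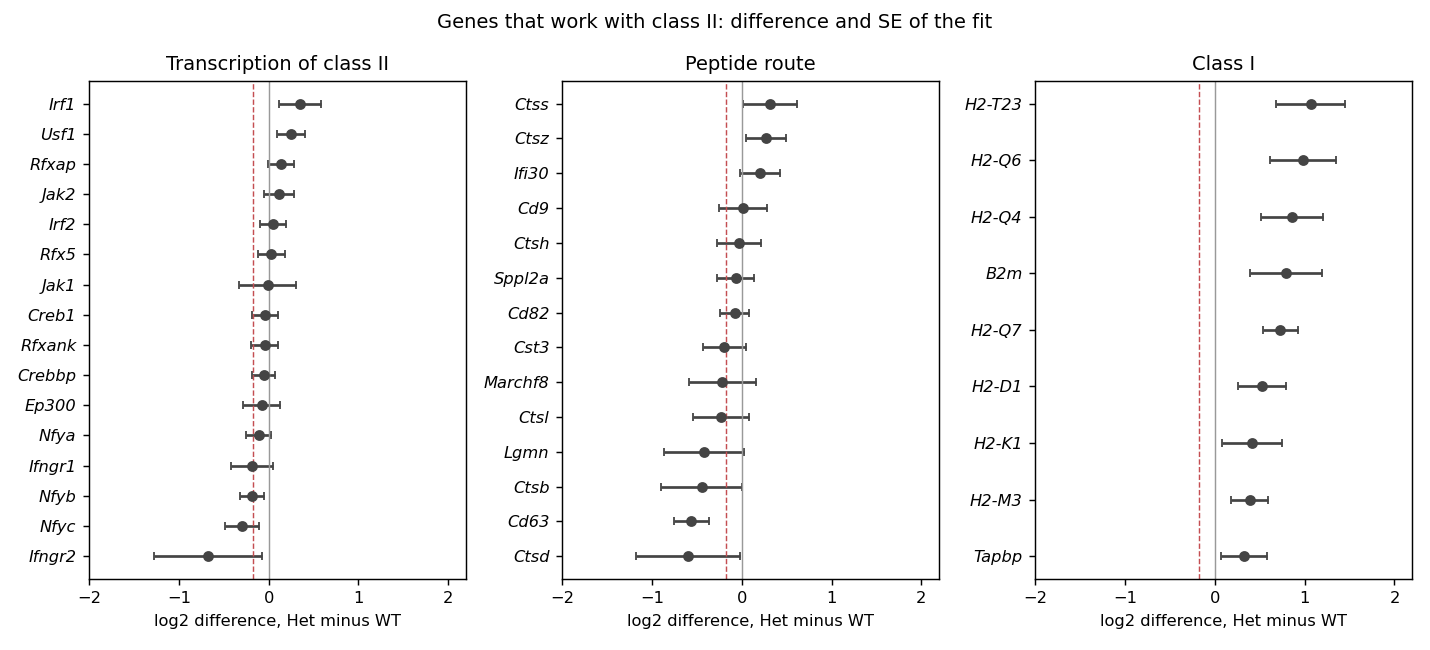
Log2 difference of Het from WT (x axis, log2(FPKM + 1) scale) for tested genes of 3 lists (1 transcription gene is not shown), with points for the estimate and bars for its SE (3 hearts per group); the dashed line is the median of all tested genes, −0.18. All 9 class I genes lie to the right of 0, while the transcription and peptide route genes lie on both sides.

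Among costimulatory genes, which give T cells the second signal beside class II, 6 of 7 were listed and 2 tested. Cd274 (PD-L1), an inhibitory ligand induced by interferons, had 1.53 to 1.63 FPKM across WT hearts and 7.27, 17.2 and 2.34 FPKM across Het hearts. The log2 difference came to 1.63 (SE 0.57), with an adjusted p by limma of 0.753 and 0.107 without Het 3, within a range of 0.107 to 0.937 over the limma alternatives. The authors' deposited table gives Cd274 a q-value of 0.00455. Icosl had a log2 difference of 0.02 (SE 0.21, adjusted p 0.968). Cd86 and Cd83, induced on activated dendritic cells, were highest in Het 3, with 0.877 and 1.44 FPKM. The other hearts ran from 0.322 to 0.693 FPKM for Cd86 and from 0.416 to 0.953 FPKM for Cd83. Of 8 T cell markers, 2 were listed, and these summed to 0.333 to 0.643 FPKM in WT and 0.519 to 1.08 FPKM in Het. Cd4, the coreceptor that binds class II, was not among the listed genes.

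The genes whose levels over the 6 hearts were most like the class II profile were ranked by Pearson correlation with the mean standardised profile of H2-Aa, H2-Ab1, H2-Eb1 and Cd74. Of 3575 genes with a log2 range of at least 1, the first 8 were Calcrl (0.980), Tril (0.973), Aldh1a1 (0.948), Scd1 (0.946), Cyp1a1 (0.946), Pdpn (0.945), Sdc1 (0.942) and Cd53 (0.941). Calcrl, a receptor for adrenomedullin, had 3.59 to 4.64 FPKM across WT hearts and 3.45, 4.35 and 9.25 FPKM across Het hearts. All 8 were highest in Het 3, and Pdpn, a marker of alveolar type I and lymphatic cells, reached 2.43 FPKM there, with 0.431 to 1.24 FPKM elsewhere. Cd53, a tetraspanin of white blood cells, reached 4.29 FPKM in Het 3, with 1.59 to 2.16 FPKM elsewhere. Ranked again without Het 3, the first 8 genes shared 0 with this list. The log2 range of at least 1 was required anew over the remaining hearts, which left 3361 genes. None of the 8 genes above met it there, so the lack of shared genes was fixed in advance. Nothing is read from it.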

How the data were processed

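The authors deposited 1 FPKM value per gene and heart. No header states the unit, which was taken from the range of the values and the naming of StringTie. Per the labels' protocols the libraries were stranded; whether quantification used strand was not stated. The submitters' processing notes list, with no roles, the build mm10 and the tools cutadapt 1.9, StringTie 1.3.4d, HISAT2 2.0.4, DESeq2 and edgeR. The smallest FPKM sum over the 6 hearts was 0.502, so lower genes are not listed. A p-value, q-value, −log10 p, fold change (a ratio) and log2 fold change of the authors' own are in the deposited table. The table has no counts and depth is unknown, so errors are the spread between hearts.

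The filter was a mean of 1 FPKM or more. Genes that passed were fitted on log2(FPKM + 1) with limma 3.58.1 in R 4.3.3 (trend and robust variance), with Benjamini-Hochberg adjustment over all 11096 genes and a threshold of 0.05. The fit took the place of the count model that would have been used for counts. The fit was run on simulated data in which both groups had the spread of the WT hearts. Across tested genes, the SD of the difference from the WT mean was 0.33 to 0.77 in Het hearts and 0.14 to 0.15 in WT. The simulation thus does not show how many changes the fit would find here. For H2-DMa and H2-DMb1, below the filter, SEs come from a fit that kept all listed members. The class II genes and the other lists were chosen with earlier results of these data known. Named genes are the members, the 3 of smallest p in each related list, a panel of 21 genes and the 8 most alike. Of that panel Otub1 served as the genotype check, Cd79a, Itgax, H2-Eb2, H2-Oa and H2-Ob were not listed, and the likeness ranking skipped predicted gene names. A gene of this panel is not reported here. Genes named outside this rule were chosen after their values were seen. Of the table's identifiers, 97.6% were found in GENCODE M21 (GRCm38), the source of coordinates. Promoters are from RefSeq (GRCm38.p6). Alternatives were another pseudocount, other filters, 3 scalings, quantile normalization among them, library weights, a replicate block and leaving out each heart. Plots used matplotlib 3.10.9.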

Additional observations from a re-analysis of the deposited data

How the results depend on the processing

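The count of genes called over the whole table was 2, both lower in Het. It was 1 with median-ratio scaling, 1 with quantile normalization and 22 with library weights. It was 1 without any single WT heart, 8 without Het 1, 25 without Het 2 and 38 without Het 3. The authors' deposited q-values called 152. The count of related genes called was 0, and 0 to 5 when single hearts were left out, with the 5 found without Het 3 only. By the authors' deposited q-values it was 14, a setting added after seeing the data. Replicate numbers are shared by the groups, but correlations of same-numbered hearts were −0.20, −0.43 and 0.21, so the numbers were not taken to pair them. With the replicate block 1 gene was called, and 0 related genes. Of the class II values, only H2-DMb1 with a pseudocount of 0.1 moved by more than the spread between hearts, to 1.12. That value is on another log2 scale than the spread. For H2-Aa, H2-Ab1, H2-Eb1 and Cd74 the pooled SD was 0.69 to 0.79, with Het 3 in it. Leaving out Het 3 turned each of their differences negative, yet that change stayed within so wide a spread. Leaving out single hearts gave log2 differences of −0.15 to 0.79 for H2-Aa, −0.15 to 0.83 for H2-Ab1, −0.39 to 0.66 for H2-Eb1, −0.17 to 0.84 for Cd74, 0.05 to 0.42 for H2-DMa and 0.34 to 0.70 for H2-DMb1. The median relative to all genes then ran from 0.10 to 0.78. The lowest values were each those without Het 3, and all 6 genes stayed above 0 under the 3 other scalings. The cause of these shifts was not tested. The likeness ranking without Het 3 was chosen after seeing the data.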
